A study of Homo sapiens with 8 samples.

Results

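The heat shock chaperones described here are 10 genes, HSPA1A, HSPA1B, HSP90AA1, HSPH1, DNAJB1, HSPB1, HSPA8, HSP90AB1, HSPD1 and HSPE1, taken by gene symbol from a table of 38148 genes measured in HT29 cells. They were divided by role into 6 inducible cytosolic chaperones (HSPA1A, HSPA1B, HSP90AA1, HSPH1, DNAJB1 and HSPB1), 2 constitutive cytosolic chaperones (HSPA8 and HSP90AB1) and 2 mitochondrial chaperones (HSPD1 and HSPE1). All 10 passed the filter on low values. The line HT29 derives from a human colorectal carcinoma and carries a BRAF mutation that keeps MEK and ERK signalling active, while selumetinib inhibits MEK. HT29 cells, 1 line without any further genetic change, received no drug or 1 μM selumetinib over 24 h. Both cultures were then glyoxal-fixed, and an antibody to cyclin B1, a protein that builds up before mitosis and is the product of CCNB1, served to sort negative from positive cells. Poly(A)-selected mRNA was sequenced in 2 libraries for each combination of drug (none or selumetinib) and fraction (CCNB1-negative or CCNB1-positive), which gave 4 groups.

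The labels of all 8 libraries disagree within themselves. Each title gives the other treatment and the other fraction from the short description, and the groups used here are those of the descriptions, which name the columns of the deposited table. If the titles held instead, each response to selumetinib below would belong to the opposite fraction with its sign turned, each difference between fractions would belong to the opposite treatment with its sign turned, and the difference between responses would be as given. CCNB1 mRNA, measured in the descriptions' groups, lay at 3238 and 4120.0 normalised reads in untreated CCNB1-negative, 14140.0 and 17002 in untreated CCNB1-positive, 242 and 149 in treated CCNB1-negative and 6940.0 and 5928 in treated CCNB1-positive libraries. Under the titles, CCNB1 mRNA would instead be lower in CCNB1-positive than in CCNB1-negative cells of both treatments. A normalised read count is 2 raised to the deposited log2 value, that is, reads on a gene scaled to the largest library.

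Depth ranged from 12696860 to 23916160 reads on genes, and the treated libraries were shallower than the 2 untreated CCNB1-positive ones. The MEK-responsive genes DUSP6, SPRY4 and ETV4 were lower under selumetinib in both fractions (limma, largest adjusted p = 8.8e-04). Under the titles, these genes would be higher under selumetinib in both fractions. All 6 colon epithelium markers were detected in every library, CDX2 at 50.4 to 153 normalised reads and the others at 2582 or more. Of the 6 markers of other cell types, 5 did not pass the filter and lay between 0.0 and 27.4 normalised reads, while COL1A1 lay between 7.6 and 120 and was highest in the treated CCNB1-positive libraries. The 14219 genes that averaged at least 1 RPM, a unit that scales reads to a fixed library total, were tested with limma, with Benjamini-Hochberg adjustment over all of them, and a gene was called at an adjusted p under 0.05. Nothing in the labels says whether the 2 libraries of a group came from separate cultures, so the p-values measure only the spread between these libraries. Of the genes called in CCNB1-negative cells, 51.6% were higher with the authors' scaling and 42.9 to 63.1% with the other scalings tried. These shares were 58.1% and 40.9 to 71.9% in CCNB1-positive cells, 47.5% and 48.1 to 64.8% between untreated fractions, 63.6% and 47.9 to 66.6% between treated fractions, and 93.5% and 70.9 to 94.6% for the difference between responses.

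Chaperones bind unfolded or partly folded proteins and release them in cycles driven by ATP. HSP70 proteins such as HSPA1A and HSPA8 receive their clients from J-domain proteins, HSP90 proteins act on clients that are closer to their final fold, and HSPD1 and HSPE1 form the folding chamber of the mitochondrial matrix. Heat shock factors bind inverted repeats of the unit NGAAN, the heat shock element, in front of many of these genes, and induce the inducible members strongly in stressed cells, whereas the constitutive members are made in all growing cells.

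The letters of this element around the listed starts of the members are shown as a description. Whether they bear on the responses to selumetinib was not tested. Windows of 300 bases, from 250 before to 50 after each start, were taken from RefSeq (GRCh38.p14), and all 10 members were matched. GAANNTTC or TTCNNGAA, each of which reads the same on both strands, holds 2 units and was found in the windows of 8 of the 10 members, against 16.2% of all 27305 genes and 13.5% of all 35116 windows. A run of 3 units, that is GAANNTTC followed by NNGAA or, on the other strand, TTCNNGAA followed by NNTTC, contains 2 overlapping matches of 2 units. It was found for 4 members, HSPA8, HSP90AA1, HSP90AB1 and HSPD1, against 0.608% of all genes. Of the 89 other chaperone genes matched, from the lists given further below, 24 held 2 units and 5 held a run of 3. The members with only 2 units in a row were HSPA1A, HSPA1B, HSPB1 and DNAJB1, and the windows of HSPH1 and HSPE1 held neither. HSPD1 and HSPE1 are neighbours on opposite strands. The stretch printed for HSPD1 ends at 197500089, upstream of the HSPE1 window, which begins at 197500129. A longer window would therefore hold it for HSPE1 as well. It also lies downstream of the first listed start of HSPD1. Capitals in the lines below mark the matched letters, and each line reads 5′ to 3′ along the strand of its gene.
HSPA8, chr11:123062350-123062370, minus strand, match beginning 230 bases before the start: gcttGAAAGTTCCAGAAcgct
HSPA8, chr11:123062175-123062195, minus strand, match beginning 55 bases before the start: ccccTTCTGGAAGGTTCtaag
HSP90AB1, chr6:44247766-44247855, plus strand, first match beginning 165 bases before the third listed start: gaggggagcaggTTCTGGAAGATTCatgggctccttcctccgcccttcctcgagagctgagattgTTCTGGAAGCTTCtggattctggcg
HSP90AA1, chr14:102087093-102087144, minus strand, first match beginning 88 bases before the second listed start: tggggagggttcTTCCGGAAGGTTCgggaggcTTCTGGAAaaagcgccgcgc
HSPD1, chr2:197500064-197500089, minus strand, match beginning 245 bases before the second listed start: cattTTCTGGAAAGTTCTGGAAccga
HSPA1A, chr6:31815425-31815456, plus strand, match beginning 106 bases before the start: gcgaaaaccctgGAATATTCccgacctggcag
HSPA1B, chr6:31827621-31827652, plus strand, match beginning 105 bases before the start: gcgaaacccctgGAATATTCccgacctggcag
DNAJB1, chr19:14518425-14518486, minus strand, first match beginning 77 bases before the second listed start: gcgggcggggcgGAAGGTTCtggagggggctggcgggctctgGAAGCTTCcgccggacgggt
HSPB1, chr7:76302479-76302510, plus strand, match beginning 182 bases before the start: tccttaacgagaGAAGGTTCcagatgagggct
By GENCODE 44, the stretches of HSP90AB1, HSP90AA1 and DNAJB1 lie in an intron of their own gene, since each has a start further upstream, those of HSPA8 and HSPD1 touch an exon of theirs, and those of HSPA1A, HSPA1B and HSPB1 lie outside the gene. DNAJB1 has 1 more match, at the last of its listed starts. The lines of HSPA1A and HSPA1B carry the same 8 matched letters. A match of letters is a description of the sequence and not a measurement of binding.

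Under selumetinib, 9 of the 10 chaperone genes were lower and 1, HSPB1, was higher, and this held in both fractions. In CCNB1-negative cells 35.8% of all genes tested were called lower and 38.2% higher, and in CCNB1-positive cells 27.3% were called lower and 38% higher. The median log2 fold change of the 10 genes was -2.59 in the CCNB1-negative and -1.71 in the CCNB1-positive fraction, against 0.05 and 0.17 over all genes tested. By class, the medians in CCNB1-negative cells were -3.38 for the mitochondrial pair, -3.09 for the constitutive pair and -1.20 for the 6 inducible genes. The corresponding medians in CCNB1-positive cells were -2.24, -2.17 and -0.88. Together the 10 genes took 0.754 and 0.940% of the reads on genes in untreated CCNB1-negative and 0.907 and 1.07% in untreated CCNB1-positive libraries, against 0.148 and 0.130% in treated CCNB1-negative and 0.289 and 0.321% in treated CCNB1-positive ones. In sorted bulk samples a lower value may come from fewer cells with the mRNA or from less of it per cell, and the 2 cannot be told apart. Mitochondrially encoded RNA took 4.44 to 7.80% of reads in untreated and 11.9 to 14.8% in treated libraries, MALAT1 0.303 to 0.386% and 2.01 to 4.42%. Scaling to the remaining reads moved the median of all genes from 0.05 to 0.36 in CCNB1-negative and from 0.17 to 0.42 in CCNB1-positive cells, and among the calls of the 10 genes in both fractions it ended those of HSPA1A and HSPA1B in CCNB1-positive cells.

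**Figure D1:**
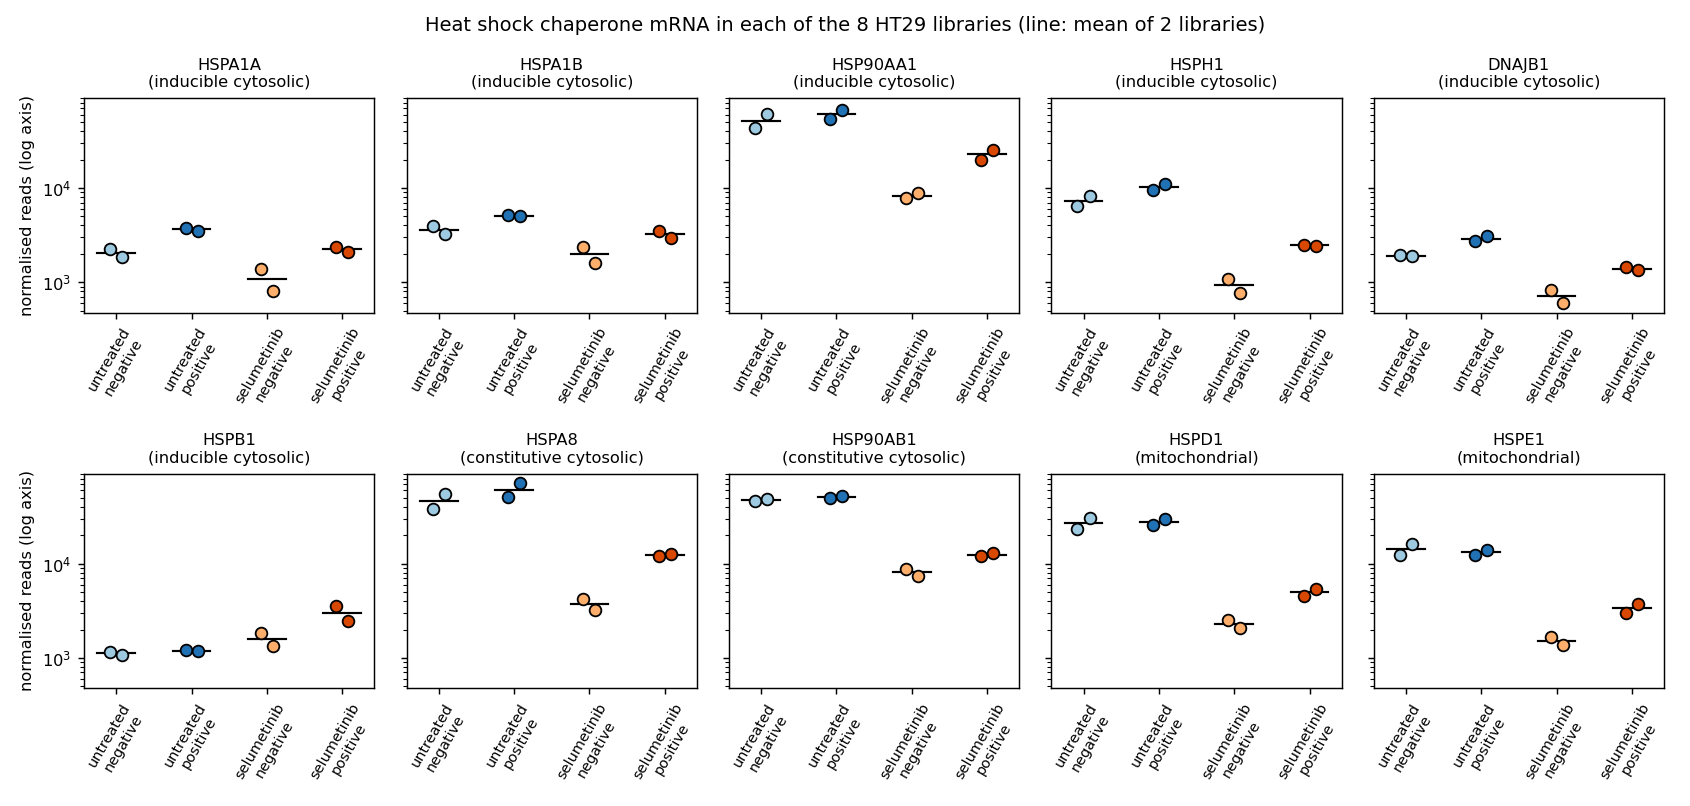
Normalised reads (log axis) of the 10 chaperone genes in each of the 8 libraries, with a point for each library, a line at the mean of 2 libraries and the 4 groups along the x axis. In 9 panels the treated points of a fraction lie below both untreated points of that fraction, and in the HSPB1 panel they lie above them.

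HSPD1 (ENSG00000144381, chromosome 2 of GRCh38, 197486584 to 197516737, minus strand) encodes the mitochondrial chaperonin HSP60. Its normalised reads were 23594 and 30282 in untreated CCNB1-negative, 25851 and 29735 in untreated CCNB1-positive, 2526.5 and 2097 in treated CCNB1-negative and 4591 and 5340.5 in treated CCNB1-positive libraries. The untreated fractions overlapped, and the treated groups lay far below them without overlapping each other. The log2 fold change under selumetinib was -3.54 (limma, standard error 0.18, adjusted p = 3.0e-09) in CCNB1-negative cells, an 11.6-fold lower level, and -2.49 (standard error 0.18, adjusted p = 2.4e-07, limma) in CCNB1-positive cells. A lower log2 fold change was found for 0.598% of all genes tested in the CCNB1-negative and for 0.183% in the CCNB1-positive fraction.

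HSPE1 (ENSG00000115541, chromosome 2, 197500140 to 197503449, plus strand) encodes HSP10, the lid of the HSP60 chamber, and lies inside the interval of HSPD1 on the opposite strand. HSPE1 had 12321 and 16355 normalised reads in untreated CCNB1-negative, 12500.0 and 14023 in untreated CCNB1-positive, 1649 and 1383 in treated CCNB1-negative and 2968 and 3731 in treated CCNB1-positive libraries. The untreated fractions overlapped, and the treated groups lay below them, the CCNB1-negative one lower. The log2 fold change was -3.23 (limma, standard error 0.18, adjusted p = 5.7e-09) in CCNB1-negative and -1.99 (standard error 0.18, adjusted p = 1.1e-06, limma) in CCNB1-positive cells. The strand handling of the counting is not given in the sources used here, so reads of HSPE1 may stand in the value of HSPD1. With the reads of HSPE1 taken off those of HSPD1, both falls of HSPD1 were still called and were larger, at -3.99 and -3.16 on the log2 scale, and the medians of the mitochondrial pair were -3.61 and -2.58. The readthrough gene HSPE1-MOB4 overlaps HSPE1 on the same strand and may share reads with it, which leaves the level of HSPE1 uncertain.

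The constitutive cytosolic genes fell in both fractions as well. HSPA8 (ENSG00000109971, chromosome 11, 123057489 to 123063230, minus strand) encodes HSC70, the HSP70 protein of unstressed cells, and its introns host 3 small nucleolar RNA genes. Its normalised reads were 37847 and 54391 in untreated CCNB1-negative, 51432 and 71208 in untreated CCNB1-positive, 4246.5 and 3191 in treated CCNB1-negative and 12123 and 12632 in treated CCNB1-positive libraries. The untreated fractions overlapped, and both treated CCNB1-positive libraries lay above both treated CCNB1-negative ones. The log2 fold change was -3.62 (limma, standard error 0.23, adjusted p = 1.5e-08) in CCNB1-negative cells, 12.3-fold lower and the greatest fall among the 10 genes with HSPD1 as deposited (-3.54), though not with the reads of HSPE1 taken off HSPD1 (-3.99), and -2.29 (standard error 0.23, adjusted p = 2.3e-06, limma) in CCNB1-positive cells.

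HSP90AB1 (ENSG00000096384, chromosome 6, 44246166 to 44253888, plus strand) encodes HSP90 beta, the constitutive HSP90 protein. It had 46652 and 48288 normalised reads in untreated CCNB1-negative, 50168 and 52625 in untreated CCNB1-positive, 8794 and 7436 in treated CCNB1-negative and 12002 and 12862 in treated CCNB1-positive libraries. No 2 groups overlapped, although the untreated fractions lay close together. It changed by a log2 fold change of -2.55 (limma, standard error 0.18, adjusted p = 4.1e-08) in CCNB1-negative and -2.05 (standard error 0.18, adjusted p = 9.4e-07, limma) in CCNB1-positive cells.

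The 6 inducible genes did not move as a block. HSPH1 (ENSG00000120694, chromosome 13, 31134974 to 31162388, minus strand), an HSP110 protein that exchanges nucleotide on HSP70, had 6437 and 8135 normalised reads in untreated CCNB1-negative, 9533 and 10985 in untreated CCNB1-positive, 1089 and 761 in treated CCNB1-negative and 2496 and 2439.5 in treated CCNB1-positive libraries. Its log2 fold change of -2.99 (limma, standard error 0.18, adjusted p = 1.1e-08) in CCNB1-negative cells lay among those of the constitutive genes, and so did the -2.05 (standard error 0.18, adjusted p = 9.4e-07, limma) in CCNB1-positive cells. No 2 groups of HSPH1 overlapped.

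HSP90AA1 (ENSG00000080824, chromosome 14, 102080738 to 102139699, minus strand) encodes HSP90 alpha, the inducible partner of HSP90 beta. Its normalised reads were 43199.9 and 60671 in untreated CCNB1-negative, 54454 and 67054 in untreated CCNB1-positive, 7842 and 8752 in treated CCNB1-negative and 20002 and 25515 in treated CCNB1-positive libraries. The untreated fractions overlapped and the treated ones did not. The log2 fold change was -2.63 (limma, standard error 0.23, adjusted p = 2.0e-07) in CCNB1-negative and -1.42 (standard error 0.23, adjusted p = 1.0e-04, limma) in CCNB1-positive cells, and the latter was -0.84 with quantile normalization.

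DNAJB1 (ENSG00000132002, chromosome 19, 14514769 to 14529770, minus strand) encodes the J-domain protein HSP40, which hands clients to HSP70. Its normalised reads were 1929 and 1901 in untreated CCNB1-negative, 2720.0 and 3079 in untreated CCNB1-positive, 821 and 604 in treated CCNB1-negative and 1436 and 1339 in treated CCNB1-positive libraries. No 2 groups overlapped. DNAJB1 had a log2 fold change of -1.44 (limma, standard error 0.16, adjusted p = 2.5e-06) in CCNB1-negative and -1.06 (standard error 0.16, adjusted p = 7.4e-05, limma) in CCNB1-positive cells.

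HSPA1A (ENSG00000204389, chromosome 6, 31815464 to 31817946, plus strand) and HSPA1B (ENSG00000204388, chromosome 6, 31827738 to 31830254, plus strand) each encode the stress-induced HSP70 in 1 exon, and as near-identical copies their separate values are uncertain. HSPA1A had 2246 and 1836 normalised reads in untreated CCNB1-negative, 3743 and 3529.5 in untreated CCNB1-positive, 1381 and 804 in treated CCNB1-negative and 2367 and 2095 in treated CCNB1-positive libraries. HSPA1B had 3934 and 3282 normalised reads in untreated CCNB1-negative, 5198 and 5002 in untreated CCNB1-positive, 2388 and 1594 in treated CCNB1-negative and 3520.1 and 2964 in treated CCNB1-positive libraries. For both genes the treated libraries lay below the untreated ones of their own fraction, whereas the treated CCNB1-positive and untreated CCNB1-negative libraries overlapped.

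The falls of this pair were the smallest among the 9 genes that fell. HSPA1A had a log2 fold change of -0.95 (limma, standard error 0.21, adjusted p = 1.0e-03) in CCNB1-negative and -0.71 (standard error 0.21, adjusted p = 0.0091, limma) in CCNB1-positive cells. HSPA1B had -0.88 (standard error 0.19, limma adjusted p = 7.1e-04) and -0.66 (standard error 0.19, adjusted p = 0.0070, limma) in the same comparisons. In CCNB1-positive cells neither was called with quantile normalization (limma adjusted p = 0.058 and 0.12), with scaling to nuclear genes without MALAT1 (0.080 and 0.077) or without the treated CCNB1-positive replicate 2 (0.060 and 0.067). With the reads of the 2 copies summed, the falls were called in both fractions.

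HSPB1 (ENSG00000106211, chromosome 7, 76302673 to 76304295, plus strand) encodes HSP27, a small heat shock protein that holds unfolded proteins without ATP, and it moved the other way. Its normalised reads were 1164 and 1079 in untreated CCNB1-negative, 1203 and 1172 in untreated CCNB1-positive, 1858 and 1349.5 in treated CCNB1-negative and 3562 and 2446 in treated CCNB1-positive libraries. The treated libraries lay above all untreated ones, and the treated CCNB1-positive libraries were the highest. The log2 fold change was 0.50 (limma, standard error 0.19, adjusted p = 0.030) in CCNB1-negative and 1.31 (standard error 0.19, adjusted p = 4.9e-05, limma) in CCNB1-positive cells. The smaller rise was not called with scaling by the median ratio, where the log2 fold change was 0.24 (limma adjusted p = 0.25) and the median of all genes moved from 0.05 to -0.21. Such scaling shifts all genes of a library alike, so the rise stayed at 0.45 relative to that median by construction. It was also not called without the untreated CCNB1-negative replicate 1 (limma adjusted p = 0.051), without replicate 2 of that group (0.12) or without the treated CCNB1-negative replicate 1 (0.25).

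**Figure D2:**
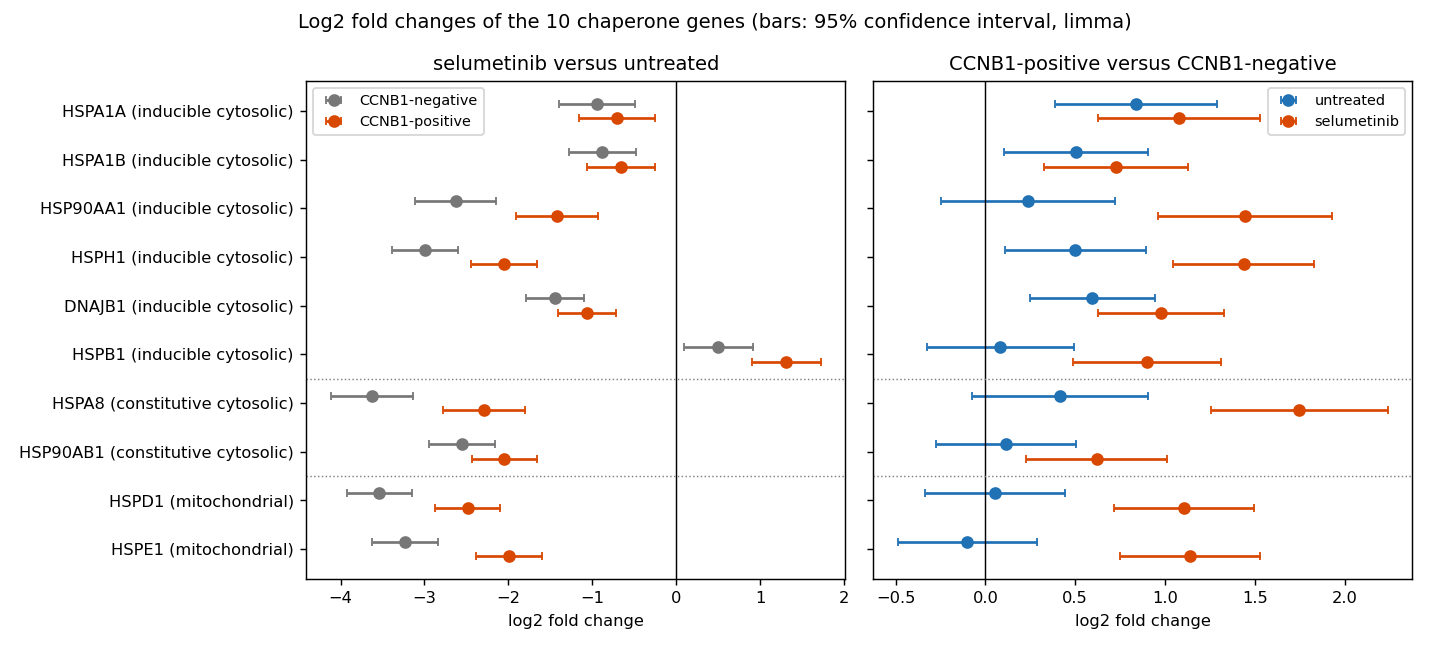
Log2 fold changes of the 10 chaperone genes with 95% confidence intervals from limma, for selumetinib against untreated cells of each fraction (left) and for CCNB1-positive against CCNB1-negative cells of each treatment (right); dotted lines part the 3 classes. HSPB1 alone lies right of 0 in the left panel, and all 10 treated values in the right panel lie right of 0.

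The order of the levels differed between untreated and treated cells. The levels of HSPD1, HSPE1, HSPA1A and HSPA1B used here are uncertain for the reasons given above. Per kilobase of the MANE Select transcript, the untreated CCNB1-negative mean was highest for HSPE1 at 25742 normalised reads per kilobase, followed by HSPA8 at 20370.5, HSP90AB1 at 18579, HSP90AA1 at 16089 and HSPD1 at 11999. The remaining 5 genes lay between 851 for HSPA1A and 1443.5 for HSPB1 on that scale. Within single libraries, HSPA8 and HSP90AB1 changed places between the 2 libraries, as did HSPB1 and HSPA1B, HSPA1B and HSPH1, and DNAJB1 and HSPA1A, while the other neighbours kept this order in both. In treated CCNB1-negative cells HSP90AB1 led at 3176 normalised reads per kilobase, HSPB1 at 2064 stood above HSPA8 at 1642.5, and HSPH1 was lowest at 176. HSPB1 lay above HSPA8 in both of these libraries, at 2391 against 1876 and at 1737 against 1409 per kilobase. In treated CCNB1-positive cells HSP90AA1 led at 7050.3 normalised reads per kilobase, and HSPB1 at 3866 stood below HSPA8 at 5467, again in both libraries.

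Ratios of reads between related members within a library do not depend on the scaling and are given as a description. The sum of HSPA1A and HSPA1B over HSPA8, the inducible over the constitutive HSP70, was 0.163 and 0.094 in untreated CCNB1-negative, 0.174 and 0.120 in untreated CCNB1-positive, 0.888 and 0.751 in treated CCNB1-negative and 0.486 and 0.400 in treated CCNB1-positive libraries. The 4 treated libraries lay above the 4 untreated ones, and the treated CCNB1-negative libraries were the highest. HSP90AA1 over HSP90AB1, the inducible over the constitutive HSP90, was 0.926 and 1.26 in untreated CCNB1-negative, 1.09 and 1.27 in untreated CCNB1-positive, 0.892 and 1.18 in treated CCNB1-negative and 1.67 and 1.98 in treated CCNB1-positive libraries. The first 3 groups overlapped, and the treated CCNB1-positive libraries stood above them. HSPD1 over HSPE1, the 2 mitochondrial genes, was 1.85 to 2.12 in the 4 untreated and 1.43 to 1.55 in the 4 treated libraries. Reads of HSPE1 that may stand in the value of HSPD1 would narrow the relative range of this ratio. HSPA1B over HSPA1A lay between 1.39 and 1.98 in the 8 libraries.

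**Figure D3:**
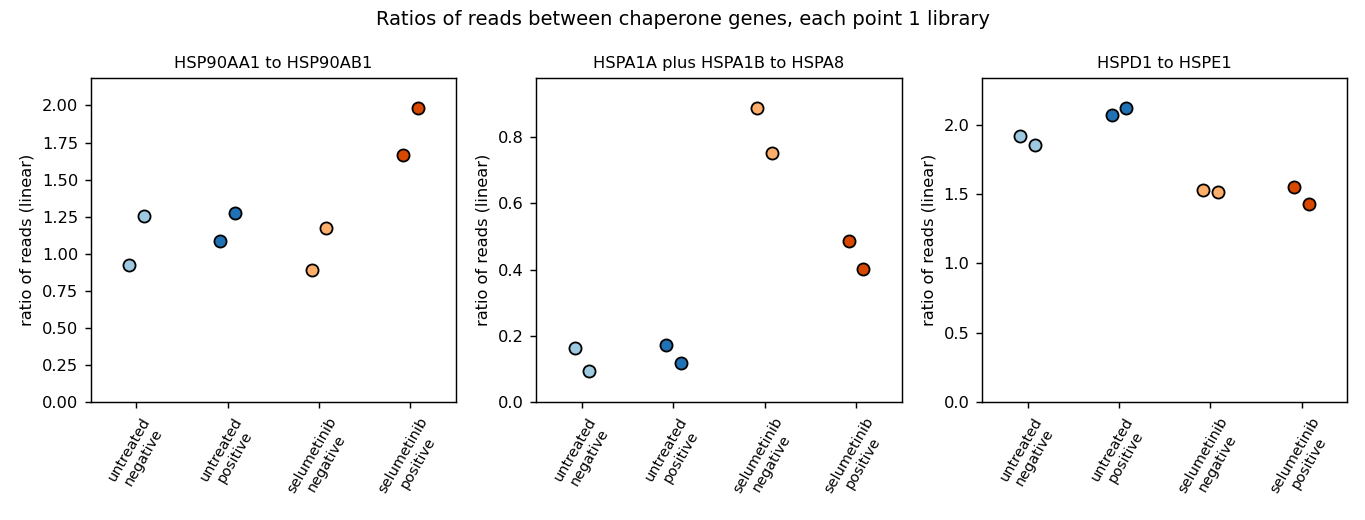
Ratios of reads on a linear axis from 0 for 3 pairs of chaperone genes, with a point for each library and the 4 groups along the x axis. The HSP70 ratio lies between 0.094 and 0.174 in untreated and between 0.400 and 0.888 in treated libraries, the HSP90 ratio stands apart at 1.67 and 1.98 in treated CCNB1-positive libraries, and HSPD1 over HSPE1 is lower in all 4 treated libraries.

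Between the fractions of untreated cells, CCNB1-positive cells differed from CCNB1-negative cells for 1 of the 10 genes, where 1.36% of all genes tested were called higher and 1.51% lower. HSPA1A was higher, with a log2 fold change of 0.84 (standard error 0.21, limma adjusted p = 0.048). HSPA1A was no longer called without any 1 of the 4 untreated libraries (limma adjusted p between 0.063 and 0.28), nor without either treated CCNB1-positive library (0.059 in both), nor with the copies summed (0.12), nor with no filter on low values, a filter of 10 RPM, quantile normalization or scaling to nuclear genes. The 9 others had log2 fold changes between -0.10 for HSPE1 and 0.60 for DNAJB1, the latter with a limma adjusted p of 0.074. The median of the 10 genes was 0.33, against -0.06 over all genes tested. With a replicate block within treatment, which compares fractions of the same treatment and replicate number, 5 of the 10 were called, all higher. Over all genes tested that fit called 675 higher and 1248 lower, against 194 and 214 in the main fit, which has no block. The labels do not say that a replicate number marks a shared culture. The proliferation genes MKI67 and TOP2A lay at 4777 to 7315 and 4876 to 7627 normalised reads in untreated CCNB1-negative libraries and at 14409.5 to 16413 and 29900.0 to 33783.5 in untreated CCNB1-positive ones.

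Between the treated fractions, all 10 genes were higher in CCNB1-positive cells, where 13.8% of all genes tested were called higher and 7.87% lower. The median log2 fold change was 1.09, against 0.02 over all genes tested, and the class medians were 1.03 for the inducible, 1.18 for the constitutive and 1.12 for the mitochondrial genes. HSPA8 had the greatest difference, 1.75 (standard error 0.23, limma adjusted p = 1.1e-04), followed by HSP90AA1 at 1.45 (standard error 0.23, adjusted p = 5.1e-04) and HSPH1 at 1.44 (standard error 0.18, adjusted p = 7.7e-05, limma). HSPE1 was higher by 1.14 and HSPD1 by 1.11 on the log2 scale (limma adjusted p = 5.9e-04 and 7.6e-04). HSPA1A differed by 1.08, DNAJB1 by 0.98 and HSPB1 by 0.90 (limma adjusted p = 0.0028, 8.7e-04 and 0.0051). The smallest differences were those of HSPA1B, 0.73 (limma adjusted p = 0.015), and HSP90AB1, 0.62 (limma adjusted p = 0.028). HSP90AB1 was not called with no filter on low values (limma adjusted p = 0.13), without the treated CCNB1-negative replicate 2 (0.16) or without either treated CCNB1-positive library (0.11 and 0.15). Without the treated CCNB1-negative replicate 2, and likewise without the treated CCNB1-positive replicate 1, HSPA1B (limma adjusted p = 0.16 and 0.13) and HSPB1 (0.075 and 0.084) were not called. The treated fractions also differed in MKI67, at 517 and 664 against 9657 and 9949 normalised reads, and in TOP2A, at 921 and 1158 against 31960.0 and 37462 normalised reads. Their part in the difference was not tested.

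The comparisons above share groups, so the question whether a response differed between fractions was put to the interaction term of the same fit. The fall was smaller in CCNB1-positive cells for each gene that fell, but the main fit, without a replicate block, called the difference for 4 of the 10 genes. Of all genes tested, 4.99% were called with a more positive and 0.345% with a more negative response there. The difference in log2 fold change was 1.33 for HSPA8 (standard error 0.32, limma adjusted p = 0.027), 1.24 for HSPE1 (standard error 0.26, adjusted p = 0.0091), 1.21 for HSP90AA1 (standard error 0.32, adjusted p = 0.043) and 1.05 for HSPD1 (standard error 0.26, adjusted p = 0.027). HSPH1 at 0.94 (limma adjusted p = 0.052) and HSPB1 at 0.82 (0.11) did not pass in the main fit. HSPH1 did with a filter of 10 RPM (0.048), with quantile normalization (0.024) and with a pseudocount of 0.1 RPM (0.049). HSPB1 did with a replicate block on the number (limma adjusted p = 0.048). Both differences shifted when a library was left out. That of HSPH1 ran from 0.68 without the treated CCNB1-negative replicate 2 to 1.197 without replicate 1 of that group. That of HSPB1 ran from 0.54 without the treated CCNB1-positive replicate 1 to 1.086 without replicate 2 of that group. HSP90AB1 at 0.51, DNAJB1 at 0.38, HSPA1A at 0.24 and HSPA1B at 0.22 did not pass in the main fit either. Their 95% confidence intervals were -0.05 to 1.06, -0.11 to 0.88, -0.40 to 0.88 and -0.35 to 0.79. The median of the 10 genes was 0.88, against 0.11 over all genes tested. With the replicate block within treatment 7 of the 10 were called, all positive. Among these were HSPB1, HSPH1 and HSP90AB1 (limma adjusted p = 2.5e-04, 2.9e-04 and 0.041). Over all genes tested that fit called 2739 positive and 1111 negative, against 709 and 49 in the main fit.

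The 4 calls differed in how far they rested on single libraries and settings. With no filter on low values HSPE1 was the 1 gene still called, and with scaling by the median ratio HSPE1 and HSPA8 were. HSP90AA1 also lost the call with scaling to nuclear genes without MALAT1 (limma adjusted p = 0.052). HSPE1 was called in each fit but that without the treated CCNB1-positive replicate 2 (limma adjusted p = 0.060). HSPD1 was not called without the untreated CCNB1-negative replicate 2 (0.13), the untreated CCNB1-positive replicate 1 (0.13), the treated CCNB1-negative replicate 2 (0.10) or the treated CCNB1-positive replicate 2 (0.13). It also lost the call with the reads of HSPE1 taken off, where the difference was 0.82 (limma adjusted p = 0.057), an alternative chosen after seeing the data. HSPA8 lost the call without the untreated CCNB1-negative replicate 2 (0.11), the untreated CCNB1-positive replicate 1 (0.14), the treated CCNB1-negative replicate 2 (0.13) or either treated CCNB1-positive library (0.072 and 0.091). Of the 8 libraries, HSP90AA1 kept the call without the untreated CCNB1-negative replicate 1 and lost it without any 1 of the other 7 (limma adjusted p between 0.053 and 0.19).

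Around these members, 105 other genes of the chaperone network were listed by role, and 95 passed the filter. Under selumetinib 73 were lower and 6 higher in the CCNB1-negative fraction, against 73 and 7 in the CCNB1-positive fraction. Their medians were -1.35 and -0.88, against 0.05 and 0.17 over all genes tested. Of all genes tested, 35.8% were called lower and 38.2% higher in CCNB1-negative, and 27.3% lower and 38% higher in CCNB1-positive cells. The counts of each list that follows are to be read beside these shares. Of the 95, 70 were lower in both fractions and 5 higher in both. None of the 8 other small heat shock proteins listed passed the filter, nor did HSPA6 and HSPA12B.

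The TRiC chaperonin, which folds actin and tubulin, was lower for 8 of 8 genes in both fractions, with medians of -2.58 and -1.86. TCP1 fell by 2.74 on the log2 scale in CCNB1-negative cells (limma adjusted p = 1.4e-08) and CCT2 by 1.96 in CCNB1-positive cells (limma adjusted p = 2.2e-06). Prefoldin, which delivers nascent chains to TRiC, was lower for 5 of 6 genes in either fraction, with VBP1 at -2.16 in CCNB1-negative and PFDN2 at -1.33 in CCNB1-positive cells. HSP90 cochaperones were lower for 11 of 14 genes in CCNB1-negative cells, where CACYBP had the greatest fall at -2.94, and for 12 of 14 in CCNB1-positive cells, where FKBP4 had it at -2.22.

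Partners of HSP70 were mixed. Of 17 J-domain cochaperones 10 were lower and 2 higher in CCNB1-negative cells, and 10 were lower and 3 higher in CCNB1-positive cells. DNAJA1, a general partner of HSC70, had log2 fold changes of -2.31 and -1.55, and DNAJB2 had 1.90 and 1.65 (limma, largest adjusted p of the 4 values 9.6e-06). Nucleotide exchange factors and other HSP70 partners were lower for 6 and 7 of 9 genes, with BAG2 at -1.91 and -1.39. Of 6 further cytosolic HSP70 and HSP110 proteins, 3 were lower in either fraction, HSPA4L most with -2.81 and -1.93, while 1 and 2 were higher. HSPA12A, the greatest rise of that list, had 1.68 and 1.57 (limma adjusted p = 5.7e-04 and 0.0013), and with quantile normalization the second value was 0.37 (adjusted p = 0.32, limma).

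In the organelles, 9 of 11 mitochondrial chaperones and proteases were lower and 1 higher in CCNB1-negative cells, and 10 were lower in CCNB1-positive cells. GRPEL1, the nucleotide exchange factor of the mitochondrial HSP70, had -2.57 and -1.90, and HSCB, a J-domain protein of iron-sulfur cluster assembly, had 0.72 (limma adjusted p = 0.0010) in CCNB1-negative cells. In the endoplasmic reticulum, 14 of 15 chaperones were lower and 1 higher in CCNB1-negative cells, and 12 were lower and 1 higher in CCNB1-positive cells. HSPA5, the HSP70 protein BiP, had -2.70 and -1.67 (limma adjusted p = 7.0e-09 and 1.3e-06), whereas SIL1, its nucleotide exchange factor, had 1.97 and 1.38 (limma adjusted p = 4.6e-07 and 2.6e-05).

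Of the heat shock factors and their binding protein, 2 of 4 were lower and 1 higher in either fraction. Over all genes tested, 35.8% were lower and 38.2% higher in CCNB1-negative, and 27.3% and 38% in CCNB1-positive cells. HSF1, the main factor of the heat shock response, changed by -0.64 (limma adjusted p = 8.1e-04) in CCNB1-positive cells, and HSBP1, its binding protein, by -1.09 in CCNB1-negative cells (limma adjusted p = 1.4e-04). HSF4 rose by 2.56 and 2.05 on the log2 scale (limma adjusted p = 4.8e-07 and 8.3e-06). The other heat-inducible genes were lower for 5 of 5 and 4 of 5, with the ubiquitin gene UBB at -1.59 and -0.86, and with quantile normalization the second value was -0.39 (adjusted p = 0.13, limma).

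**Figure D4:**
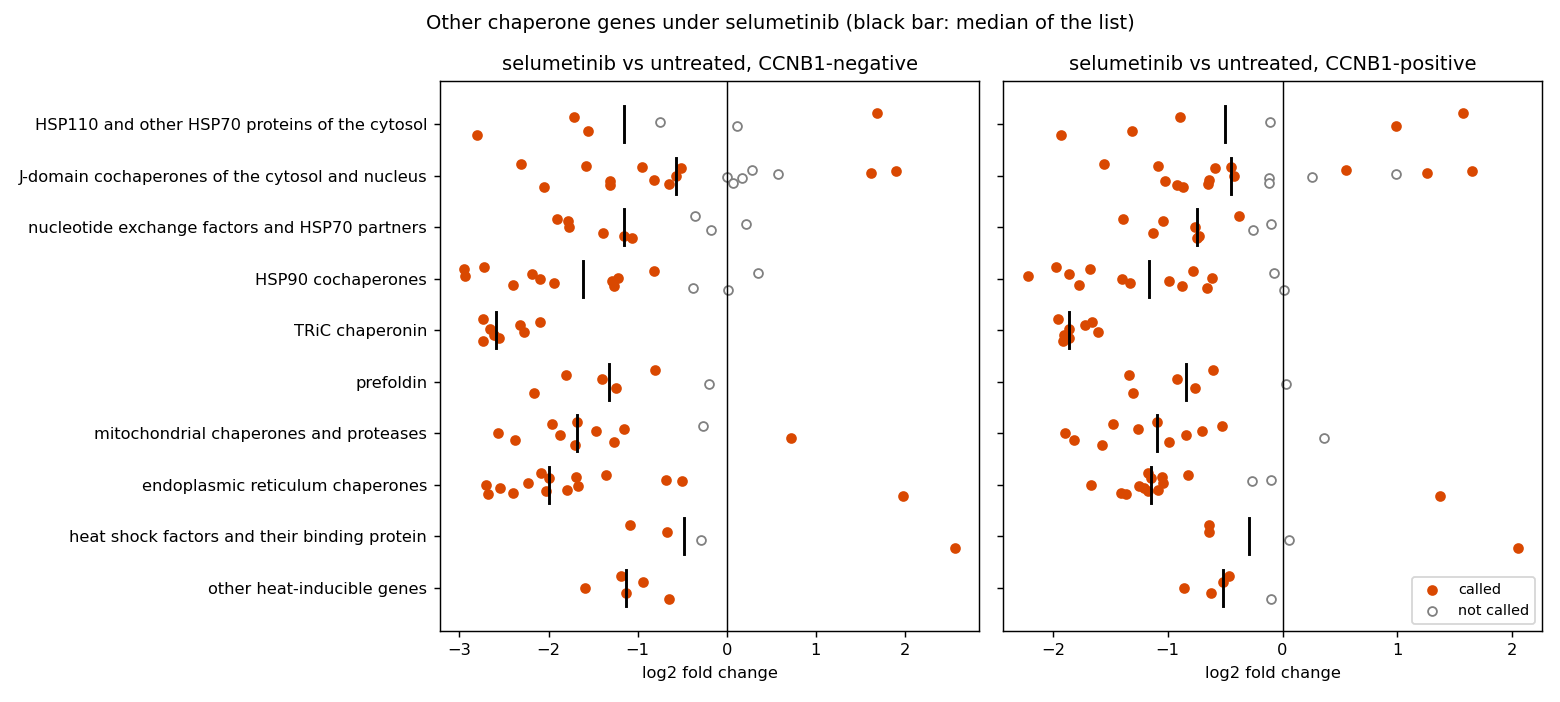
Log2 fold changes under selumetinib of the 95 other chaperone genes tested, by list, in CCNB1-negative (left) and CCNB1-positive cells (right), with filled points for genes called, open points for the others and a black bar at the median of each list. The medians of all 10 lists lie left of 0, and TRiC has the lowest in both panels, at -2.58 and -1.86.

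Between the untreated fractions 0 of the 95 other genes were called with limma and 0 with limma-voom on the recovered reads, and 7 had an unadjusted p under 0.05. Under treatment, 47 were higher and 2 lower in the CCNB1-positive than in the CCNB1-negative fraction, with a median of 0.49 against 0.02 over all genes tested. Of all genes tested, 13.8% were called higher and 7.87% lower in that comparison. All 8 TRiC genes were higher, with a median of 0.67, and 12 of the 15 endoplasmic reticulum chaperones were higher and 1 lower. The 2 lower genes were SIL1 at -0.68 and DNAJB4 at -0.65 (limma adjusted p = 0.020 and 0.018), the latter named after its value was seen. Fewer of the 95 genes were called without the treated CCNB1-negative replicate 2 or without either treated CCNB1-positive library. Over all genes tested, fewer were called in these fits as well. Of all genes tested, 4.99% were called with a more positive and 0.345% with a more negative response in CCNB1-positive cells. The response was called different between fractions for 10 of the 95, each less negative in CCNB1-positive cells or more positive. Among these 10, 7 were endoplasmic reticulum chaperones. The count of genes with a different response was higher without the treated CCNB1-negative replicate 1. It was lower without the untreated CCNB1-negative replicate 2, the untreated CCNB1-positive replicate 1, the treated CCNB1-negative replicate 2 or either treated CCNB1-positive library. Over all genes tested, the count moved in the same direction in each of these fits.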

How the data were processed

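Poly(A)-selected mRNA of 8 HT29 libraries, 2 for each of 4 groups, was sequenced with a directional kit. After adapter trimming in Trim Galore 0.5.0, the authors aligned reads by HISAT2 2.1.0 against GRCh38, quantified genes in SeqMonk and deposited log2 values of reads per gene scaled to the library with the most reads. In this table a gene without a read stands at the log2 of 0.9 reads times the constant of its library. Neither the strand handling nor the release of the annotation is given in the sources used here, and the growth media in the labels and in the methods differ. All 8 value columns were used and 0 were set aside.

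The deposited values gave back whole reads for 100% of genes with a read (relative tolerance 0.001). The reads carry no molecular identifiers. Replicates differed by more than sampling noise, with a chi-square per gene of 15.6 to 30.2. On the deposited log2 values, limma 3.58.1 (R 4.3.3, with a mean-variance trend) fitted 1 coefficient per group to genes that averaged 1 RPM or more, in place of the authors' test, which was DESeq2. Gene lengths are those of MANE Select transcripts in GENCODE 44, in which 99.3% of the gene identifiers were found. The fit was first tested on simulated data. Summaries and plots came from Python 3.11.15 (numpy 2.4.6, pandas 2.3.3, scipy 1.17.1 and matplotlib 3.10.9).

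The members, the gene lists and the tests were chosen with earlier results of these data known. The text names all 10 members, the marker genes, and, from each list and in each selumetinib comparison, the gene with the greatest rise and the gene with the greatest fall among those called. HSPA14 stands on 2 rows with the same identifier and was left out. Alternatives were an adjusted p under 0.01, no filter or one of 10 RPM, quantile normalization, scaling by the median ratio or to nuclear genes without MALAT1, a pseudocount of 0.1 RPM, 2 replicate blocks, a fit of only the groups compared, limma-voom on the recovered reads, the sum of HSPA1A and HSPA1B, and leaving out each library. HSPD1 less the reads of HSPE1 was added after seeing the data.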

Additional observations from a re-analysis of the deposited data

Results flagged for a closer look

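By the interaction term of the limma fit, the response to selumetinib was called different between the 2 fractions for 4 of the 10 members and 2 of the other named genes. Over all genes tested, the response in CCNB1-positive cells was called more positive for 4.99% and more negative for 0.345%. The difference in log2 fold change, CCNB1-positive minus CCNB1-negative, was 1.33 for HSPA8 (limma adjusted p = 0.027), 1.24 for HSPE1 (0.0091), 1.21 for HSP90AA1 (0.043) and 1.05 for HSPD1 (0.027). Each of these genes fell less in CCNB1-positive cells. With no filter on low values HSPE1 was the 1 member still called. How far these calls rested on single libraries is given above. The difference was 1.26 for CACYBP, a partner of HSP90 and of ubiquitin ligases (limma adjusted p = 0.0085), and 1.02 for HSPA5 (limma adjusted p = 0.012). HSPA5 was not called without the untreated CCNB1-negative replicate 2 (0.061), the untreated CCNB1-positive replicate 1 (0.078) or the treated CCNB1-positive replicate 1 (0.061).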

How the results depend on the processing

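Of 1015 values of the 10 members under alternative settings, 929 kept direction and side of the threshold, 60 lost the call, 19 gained it and 7 changed sign, and for the named other genes 786 of 798 kept both. The falls under selumetinib were called for 9 members in CCNB1-negative cells and for 7 to 9 in CCNB1-positive cells in every fit that left out a library. The number of members higher in CCNB1-negative cells under selumetinib was 0 at an adjusted p under 0.01 and with scaling by the median ratio, and 0 to 1 when a library was left out. With scaling to nuclear genes without MALAT1, 10 other chaperone genes were higher in that comparison. With that scaling 6588 of all 14219 genes tested were called higher there, against 5438 in the main fit.

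Between the untreated fractions the number of members called, all of them higher, was 0 at an adjusted p under 0.01, with no filter, with a filter of 10 RPM, with quantile normalization, with scaling to nuclear genes without MALAT1 and with HSPA1A and HSPA1B summed. It was 2 with scaling by the median ratio and with only the groups compared. Over all genes tested, 281 were higher and 179 lower with scaling by the median ratio, and 175 and 129 with only the groups compared. These counts were 194 and 214 in the main fit. When a library was left out, the count of members moved, as did that over all genes tested. Between the treated fractions 25 other genes were called at an adjusted p under 0.01, 25 higher and 0 lower, and 23 to 56 when a library was left out, 23 to 54 higher and 0 to 2 lower. The difference between responses was called for 1 member at an adjusted p under 0.01 and with no filter, and for 2 with scaling by the median ratio, all positive. Over all genes tested, 593 were positive and 105 negative with scaling by the median ratio, against 709 and 49 in the main fit. With no filter, 605 of 38148 genes were positive and 36 negative. When a library was left out, the count of members moved, as did that over all genes tested. For the other genes this count was 4 at an adjusted p under 0.01, 6 with no filter and 4 to 31 when a library was left out, all positive.

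Same-numbered libraries of 1 treatment deviated together (correlation across genes 0.35 for untreated and 0.43 for treated fractions, and between -0.09 and 0.08 for the other pairs), but the labels do not say that a number marks a shared culture and there are only 2 pairs each. A replicate block on the number left 10, 10, 1, 10 and 5 members called in the 5 comparisons, in the order of the report, and moved no count of calls by over 1.5 times. The added call was the difference between responses of HSPB1 (limma adjusted p = 0.048). With the replicate block within treatment, 5 members were called between untreated fractions, all higher, and 7 for the difference between responses, all positive, among them HSPB1, HSPH1 and HSP90AB1 (limma adjusted p = 2.5e-04, 2.9e-04 and 0.041). In that fit 6 other genes were called between untreated fractions, 4 higher and 2 lower, 4 were lower between treated fractions, and 53 differed in response, 51 positively and 2 negatively. Over all 14219 genes tested it called 675 higher and 1248 lower between untreated fractions, against 194 and 214 in the main fit. Between treated fractions it called 2826 lower, against 1119. For the difference between responses it called 2739 positive and 1111 negative, against 709 and 49.

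The sign changes were of values near 0 that were not called. Between untreated fractions, HSPE1 was at 0.013 with scaling by the median ratio and between -0.30 and 0.10 when a library was left out, HSP90AA1 between -0.0058 and 0.48 and HSPD1 between -0.13 and 0.23. The difference between responses lay between -0.15 and 0.63 for HSPA1A and between -0.069 and 0.51 for HSPA1B when a library was left out. The cause of these changes was not tested, except that fewer samples or genes enter some fits. Each member had at least 356 reads in every library, and with 2 libraries a group it is their number that limits the precision.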
